A study of Bos taurus with 20 samples.

Results

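The subject is a set of 156 genes whose transcripts rose strongly during the first day after serum withdrawal in cultured bovine satellite cells and were still high 3 days later. Satellite cells are the resident stem cells of skeletal muscle, and these came from the Belgian Blue breed. The 0 h libraries came from cells growing on collagen in medium with 20% serum, and the libraries at 24, 48, 72 and 96 h from cells kept since then in medium with 2% serum, with 4 replicates (A to D) at each of the 5 times. Replicates A and B made up batch 1 and replicates C and D batch 2, and the labels do not say whether the letters stand for separate animals or cultures, so p-values measure the spread between these samples only. No library received any other agent, and all 20 share the breed, the polyA selection and the sequencing.

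The 156 genes were chosen by the measured time course itself. The table of 27607 genes was reduced to 14636 with enough counts to test, and levels were expressed as CPM, the count of a gene relative to its library size, with library sizes scaled by the trimmed mean of M values (TMM). With 0.1 CPM added to each time mean, a gene was taken if it was at least 8-fold higher at 24 h than at 0 h, reached at least 2 CPM at 24 h, had at least 1 count at 0 h, and did not lose most of its level later. The last condition required the 24 h level to stay under 2 times the 96 h level and the 48 h and 72 h levels under 1.7 times. Steep late rises were also left out, by limits of 3-fold from 48 h to 72 h and 2.5-fold from 72 h to 96 h. The chosen genes are 1.07% of those tested. Of the 244 genes that met the 8-fold and 2 CPM conditions, all had a count at 0 h, and the 156 were 63.9% of them. The other 88 did not keep their level or rose steeply late.

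When satellite cells lose serum they leave the cell cycle, become myocytes and fuse into multinucleated myotubes. In muscle biology in general, early steps of this programme are driven by transcription factors of the MyoD and MEF2 families, and the genes for the contractile apparatus, for fusion and for muscle energy use are switched on in succession. The counts are listed by Ensembl cattle identifier, and the gene table used here paired 0 of the 27607 identifiers with a symbol. Which of the 156 genes belong to that programme was therefore not examined, and neither were the muscle markers of the cultures or the markers of other cell types. Identifiers are given for 2 genes, the most abundant at 24 h and the one with the largest first-day ratio when 0.1 CPM is added to both means, and the other 154 are described by their values.

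Because the rule read the time means of all 20 libraries, the levels and ratios of the 156 genes below are a description, and tests free of the choice follow where one batch is used for the choice and the other for the measurement. Libraries held between 21100797 and 41998509 counts. The 156 genes together held 0.0704, 0.107, 0.0945 and 0.110% of the counts in replicates A to D at 0 h. At 24 h their share was 1.82, 1.92, 2.51 and 1.79%. It reached 9.49, 9.35, 9.98 and 9.41% at 48 h. The 72 h libraries gave 13.1, 11.9, 12.9 and 12.3%, and the 96 h libraries 14.2, 13.8, 14.5 and 14.4%. The ranges of successive times did not overlap, and the narrowest gap lay between the highest 72 h library and the lowest 96 h library. The means were 0.0955 ± 0.0180, 2.01 ± 0.336, 9.56 ± 0.290, 12.5 ± 0.566 and 14.2 ± 0.305% (SD, n = 4 each).

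**Figure D1:**
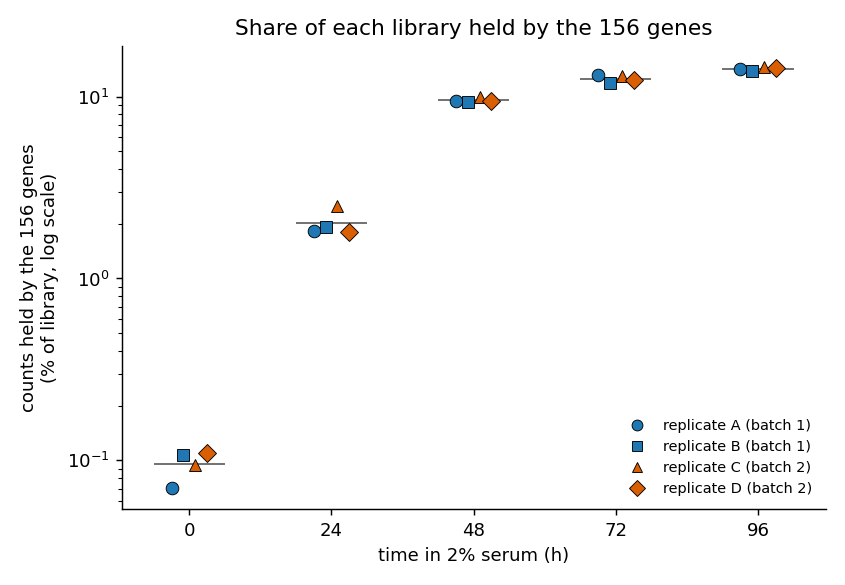
Share of each library's counts held by the 156 genes (log scale) against time in medium with 2% serum, 1 symbol per library and a line at the mean of the 4 libraries. The share goes from about 0.0955% to 14.2%, and the widest relative spreads are at 0 h, where replicate A is lowest, and at 24 h, where replicate C is highest.

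Single genes in the set spanned a wide range of abundance. The median level of the 156 genes at 0, 24, 48, 72 and 96 h was 0.902, 19.4, 109, 151 and 173 CPM, while the median of all tested genes lay between 18.0 and 18.7 CPM at every time. At 0 h 81 of the 156 were under 1 CPM and 1 was above 100 CPM. At 96 h 92 were above 100 CPM and 30 above 1000 CPM. The 100 most abundant genes of the whole table included 0 of the set at 0 h and then 4, 17, 22 and 24 of it at the 4 later times. Among the 10 most abundant genes of the whole table, 5 at 48 h and 6 at 96 h belonged to the set. A few genes dominated the summed level, since the 3 leading members held 36.0% of it at 24 h and the 10 leading members 60.9%.

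ENSBTAG00000005714 was the most abundant member at 24 h. Its levels in replicates A to D were 96.5, 149, 121 and 152 CPM at 0 h. One day later they were 2814, 2856, 3790 and 2531 CPM. The 48 h libraries held 13240, 12820, 13110 and 12560 CPM, the 72 h libraries 18430, 17580, 18230 and 17990 CPM and the 96 h libraries 17980, 17300, 18090 and 16900 CPM. The groups at 0, 24 and 48 h lay far apart, the 72 h libraries lay above those at 48 h, and 72 h and 96 h overlapped. In the ranking of all tested genes it moved from place 1466 at 0 h to place 11 at 24 h and place 2 at 48, 72 and 96 h. Its mean at 24 h was 17.1% of its mean at 96 h, so most of its gain in reads came after the first day.

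ENSBTAG00000002898 had the largest first-day ratio, 58.7-fold with 0.1 CPM added to both means. The next member stood at 58.48-fold, and the place depends on the amount added: in the edgeR fit this gene changed by 6.01 on the log2 scale, while the largest change of a member was 6.95. It held 26, 55, 24 and 48 counts in replicates A to D at 0 h, or 0.733, 1.18, 0.804 and 1.76 CPM. At 24 h it stood at 62.3, 70.5, 95.7 and 57.1 CPM. The 48 h libraries held 464, 442, 480 and 432.5 CPM, the 72 h libraries 535, 485, 497 and 466 CPM and the 96 h libraries 440, 419, 434 and 436 CPM. Replicate C was highest at 24 h in this gene as in the one before, and all 4 libraries at 96 h were below all 4 at 72 h. The gene went from place 12276 at 0 h to place 300 at 72 h and place 368 at 96 h.

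Other members differed in both the first step and what followed. The second most abundant member at 24 h went from 42.1 CPM at 0 h to 1741 CPM at 24 h and on to 26572 CPM at 96 h, and the third from 33.6 to 1368 and 17551 CPM. The sixth, in contrast, went from 14.1 to 579 CPM in the first day and stood at 1030 CPM at 96 h, so that 24 h already held 56.3% of the final level. The steepest later rise belonged to a member at 0.232 CPM at 0 h, 2.94 CPM at 24 h and 497 CPM at 96 h, a gain of 163-fold after the first day. The deepest later loss, from 73.0 CPM at 24 h to 37.3 CPM at 96 h, lay close to the limit that the rule sets.

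First-day ratios ran from 8.09-fold to 58.7-fold with a median of 17.8-fold. They fell between 8-fold and 16-fold for 70 genes, between 16-fold and 32-fold for 61 and at 32-fold or more for 25. All 4 libraries at 24 h were above all 4 at 0 h for 156 of the 156 genes, against 27.3% of all tested genes. The edgeR quasi-likelihood test called 156 of them higher at 24 h, against 31.7% of all tested genes. Both outcomes follow from the choice of the genes. The nearest members inside the 8-fold bound stood at 8.09-, 8.19- and 8.30-fold and the nearest genes outside at 7.95-, 7.90- and 7.89-fold, so the edge of the set is not a gap in the data. At the bound of 2 CPM at 24 h the nearest values inside were 2.04, 2.12 and 2.26 and outside 1.92, 1.92 and 1.91, with the 0.1 CPM included. Few counts at 0 h limit some ratios: 16 genes had under 20 counts over the 4 libraries at 0 h, 1 of them only 2, while 89 had at least 100. With 0.5 CPM added in place of 0.1 the rule returned 113 genes, all of them among the 156, and with nothing added 172 genes, of which 155 were among the 156.

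The level reached at 24 h was, for most of the genes, an early stage and not a plateau. The 24 h mean was a median of 14.6% of the 96 h mean, under 10% for 62 genes and over 50% for 29. From 24 h to 96 h, 127 genes gained 2-fold or more, among them 68 with a gain of 8-fold or more and 39 with 16-fold or more, whereas 29 stayed within 2-fold, 9 of them with a lower mean at 96 h. The rule capped losses but did not require a gain between 24 h and 48 h. On the log2 scale the rise from 24 h to 96 h exceeded that of the first day in 29 genes. The median of the 156 ratios of 96 h to 0 h was 131-fold.

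The genes differed in when they were highest. The highest mean was the 24 h mean in 7 genes, the 48 h mean in 18, the 72 h mean in 49 and the 96 h mean in 82. This grouping used the means alone, and the group of a gene can rest on a small difference. From 72 h to 96 h the edgeR test called 53 of the 156 genes higher and 13 lower, with 19.3% and 18% of all genes called. The median first-day change was 3.29 on the log2 scale for those highest at 24 h, and 4.41, 4.20 and 4.20 for those highest at 48, 72 and 96 h. The later change, from 24 h to 96 h, had medians of -0.77, 1.02, 2.32 and 3.55 in the same order. At 96 h the 82 genes highest at that time had a median of 281 CPM. The 49 highest at 72 h had 143 CPM, the 18 highest at 48 h 24.9 CPM and the 7 highest at 24 h 23.1 CPM. The grouping by highest mean bears on this order. At 24 h the medians of these groups, in the same order, were 25.3, 17.6, 10.2 and 36.4 CPM. For the 67 genes highest at 48 h or 72 h the 96 h mean was a median of 83.6% of the highest mean, and the lowest was 59.0%, which is near the limit set by the rule.

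**Figure D2:**
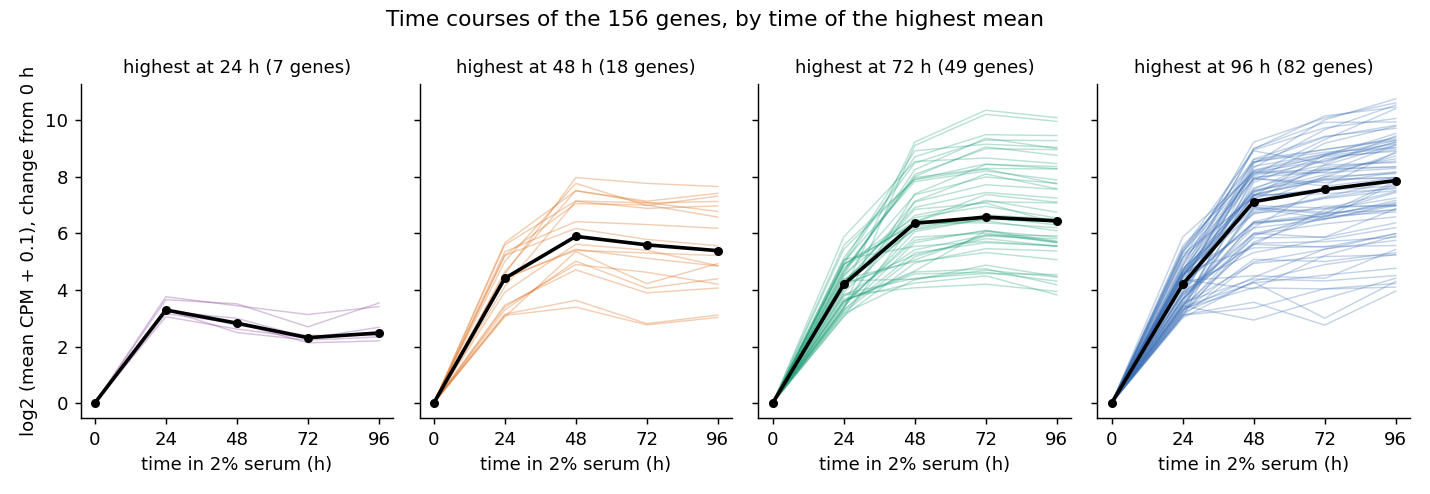
Change from 0 h in log2 of mean CPM plus 0.1 against time, 1 thin line per gene and a black line for the median, in separate panels by the time of the highest mean. The 7 genes highest at 24 h rise by a median of 3.29 and then drift down, while the 82 highest at 96 h rise by a median of 4.20 in the first day and 3.55 more by 96 h.

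Within the set, the size of the first-day rise was at most weakly related to the size of the later one. The rule bounds both changes in these genes, so the relation outside the set cannot be read from them. To avoid a shared 24 h value, the first-day change was taken from one batch and the change from 24 h to 96 h from the other. Across the 156 genes, which are measured in the same libraries and are not independent, Pearson's r was 0.0344 and Spearman's rho 0.0764 with the first day from batch 1, and 0.252 and 0.289 with the first day from batch 2. The 78 genes with the higher 24 h levels had a median later change of 2.77 on the log2 scale and the other 78 one of 2.78. Here the 24 h mean enters both the split and the change, so these medians are a description only.

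**Figure D3:**
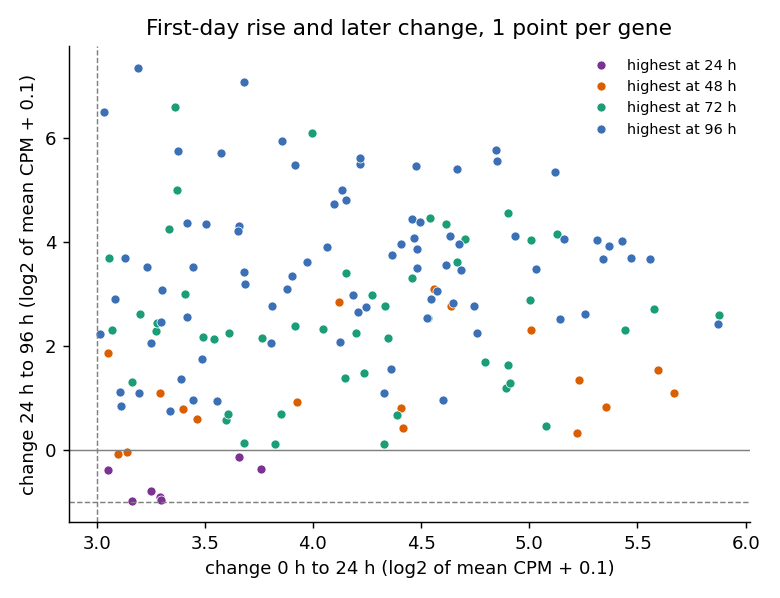
Log2 change from 24 h to 96 h against log2 change from 0 h to 24 h, both on means over all 4 libraries plus 0.1 CPM, 1 point per gene, coloured by the time of the highest mean. Dashed lines mark 8-fold on the horizontal axis and a loss of 2-fold on the vertical axis, points fill the range of later changes up to 7.35, and the 7 genes highest at 24 h lie at first-day changes under 4.

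The steps after the first day were also partly bound by the rule, which limits falls throughout and rises from 48 h on, and the counts here describe the set. On the second day, edgeR's quasi-likelihood test called 142 of the 156 genes higher and 7 lower at 48 h than at 24 h, where 31.4% of all tested genes were called higher and 31.9% lower. The median log2 change was 2.29 in the set and -0.03 over all tested genes. Between 48 h and 72 h 81 were called higher and 18 lower, with 20.7% and 20.8% of all genes called, and the median change in the set had dropped to 0.36. Between 72 h and 96 h 53 were called higher and 13 lower, with 19.3% and 18% of all genes called, and the median change was 0.155. Over 24 h to 96 h as a whole 144 were called higher and 5 lower, where 36.6% of all genes were called in each direction. Without replicate D at 96 h the count of lower genes in the last step was 21 in place of 13, with 18.8% of all genes called lower.

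A test free of the choice was made by applying the rule to one batch and measuring the chosen genes in the other, whose libraries had no part in the choice. Batch 1 alone gave 145 genes, and all 145 had enough counts in batch 2 to be tested there. In batch 2, 145 of the 145 were called higher at 24 h than at 0 h (edgeR quasi-likelihood test on the 10 libraries of batch 2, Benjamini-Hochberg adjustment over all genes), where 24.9% of all genes were called higher. Their median first-day change was 18.9-fold in batch 2 and 17.5-fold in batch 1. The smallest was 4.69-fold, and 132 of the 145 again reached 8-fold. Batch 2 alone gave 166 genes, of which all 166 could be tested in batch 1 and 166 were called higher, where 27.4% of all genes were. Their median was 17.4-fold in batch 1 and 18.6-fold in batch 2, the smallest 4.76-fold, and 154 of them again reached 8-fold.

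**Figure D4:**
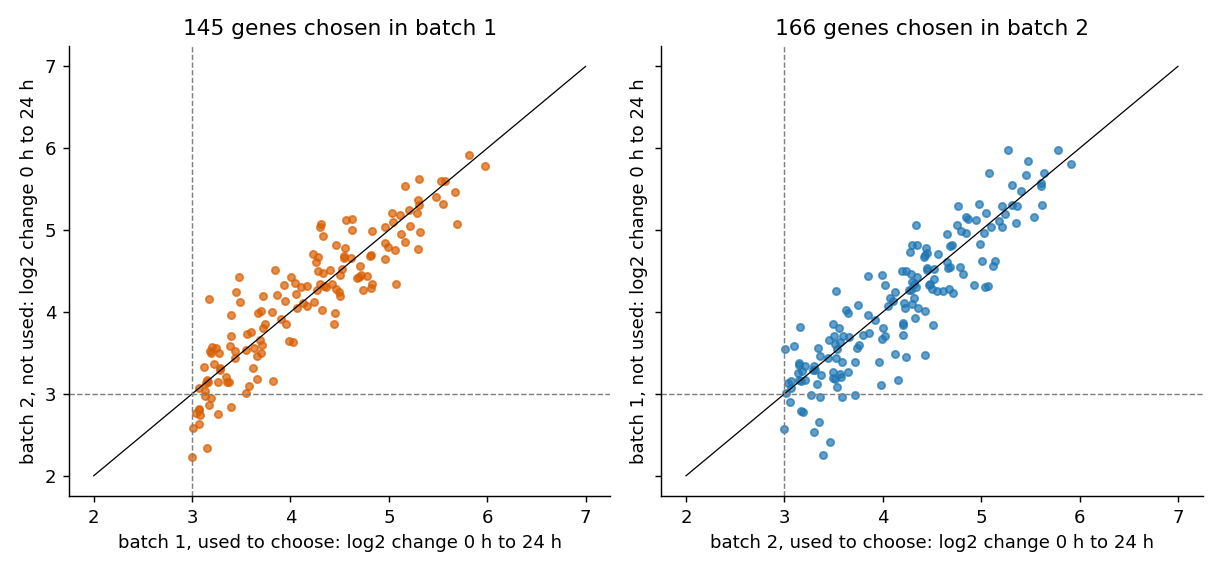
Log2 change from 0 h to 24 h in the batch not used for the choice against the same change in the batch used, for the 145 genes chosen in batch 1 (left) and the 166 chosen in batch 2 (right), with the line of equality and dashed lines at 8-fold. Points follow the line of equality, and 13 of the 145 and 12 of the 166 lie under the horizontal dashed line.

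The ordering of the genes was also much alike in both batches. The first-day changes in the choosing and the tested batch had a Pearson r of 0.906 and a Spearman rho of 0.913 over the 145 genes, and 0.900 and 0.901 over the 166 genes. For the change from 24 h to 96 h the values were 0.989 and 0.989, and 0.991 and 0.991. These are correlations across genes within the same libraries and are given without a p. The whole rule was met in both batches by 128 genes, which are 88.3% of the batch 1 choice, 77.1% of the batch 2 choice and 82.1% of the 156. Of the remaining members 6 were chosen in batch 1 alone, 16 in batch 2 alone and 6 in neither.

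Measured in the batch not used, the second-day rise was present in most of the chosen genes. Of the 145 genes chosen in batch 1, 125 were called higher and 5 lower at 48 h than at 24 h in batch 2 (edgeR), with 25.1% and 23.3% of all genes called. Of the 166 chosen in batch 2, 153 were called higher and 6 lower in batch 1, with 27.4% and 26.3% of all genes called. From 24 h to 96 h, 133 of the 145 were called higher and 6 lower in batch 2, with 31.4% and 30.3% of all genes called, and 147 of the 166 were called higher and 7 lower in batch 1, with 33% and 31.8% called. The median change from 24 h to 96 h was 2.67 on the log2 scale in batch 2 and 2.73 in batch 1. Both shares of higher genes stand far above the shares over the whole table. The measured libraries had no part in the choice, but the rule had capped falls to 96 h in the other batch. A larger share of rises than over all genes is therefore partly built into the choice.

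The third and the fourth day were smaller and less even between batches. Between 48 h and 72 h, 55 of the 145 genes were called higher and 10 lower in batch 2 (edgeR), with 13.2% and 12.4% of all genes called, and 74 of the 166 were called higher and 15 lower in batch 1, with 12.3% and 12.7% of all genes called. Between 72 h and 96 h, 31 of the 145 were called higher and 5 lower in batch 2, with 8.72% and 8.33% of all genes called. In batch 1 the same step gave 47 of 166 higher and 38 lower, with 16.7% and 15.1% of all genes called, so that higher and lower calls were closer in number there. Whether the batches differ in this step was tested only within the batch by time test below. With 2 libraries per time these counts moved with single libraries: without replicate D at 72 h the share of the 145 called higher in the last step in batch 2 was 7.59%, against 21.4% with it (2.34% of all genes without it), and without replicate D at 48 h the share called higher in the third day was 19.3%, against 37.9% (4.67% of all genes without it). In batch 1 the share higher in the third day was 27.1% without replicate B at 48 h, against 44.6% (5.38% of all genes without it), and the share lower in the last step was 13.3% without replicate A at 72 h, against 22.9% (9.84% of all genes without it).

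Both identified genes met the rule in each batch and could be tested in the other. ENSBTAG00000005714 changed by 4.53 ± 0.18 (SE) on the log2 scale in the first day in batch 2 (edgeR adjusted p = 2.79e-09) and by 4.53 ± 0.19 in batch 1 (edgeR adjusted p = 2.33e-07). ENSBTAG00000002898 changed by 5.905 ± 0.35 in batch 2 (edgeR adjusted p = 3.49e-06) and by 6.08 ± 0.14 in batch 1 (edgeR adjusted p = 2.05e-12). On the second day ENSBTAG00000005714 gained 2.02 in batch 2 and 2.20 in batch 1 (edgeR adjusted p = 1.32e-06 and 1.28e-05). ENSBTAG00000002898 gained 2.58 and 2.77 (edgeR adjusted p = 5.4e-05 and 7.2e-11). In the last step ENSBTAG00000002898 changed by -0.15 in batch 2, which did not pass (edgeR adjusted p = 0.7). In batch 1 it changed by -0.25, which passed (edgeR adjusted p = 0.0421). The fit to all 20 libraries gave -0.199 for this step, which did not pass (edgeR adjusted p = 0.222).

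The rule did not read the spread between replicates, but it did read the means at 0 h and 24 h. A gene passes the 8-fold bound more easily where a library is high at 24 h or low at 0 h. This holds for the set and for the 88 other genes that met the bound, so the deviations at these times are a description. The median biological coefficient of variation was 11.8% for the 156 genes, against 8.08% over all tested genes and 15.2% for the 88 genes with a strong first-day rise that were not in the set. At 24 h the genes deviated together. Replicate C held the highest of the 4 values for 128 of the 156 genes (82.1%), against 27.5% of all tested genes and 62.5% of the 88. Its median deviation from the 24 h mean was 0.34 on the log2 scale in the set and 0.22 in the 88 genes, with 0.01 over all tested genes. Replicate D was lowest on the median, at -0.18, followed by A at -0.14 and B at -0.01. At 0 h replicate A stood low, with a median deviation of -0.40 and the highest value for 6 of the 156 genes. Replicates B and D held the highest value for 64 and 61. Over all tested genes A, B and D held the highest value for 32.6, 24.4 and 24.9%. At 48, 72 and 96 h no library's median deviation exceeded 0.07 in size except replicate B at 96 h, at -0.0715.

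**Figure D5:**
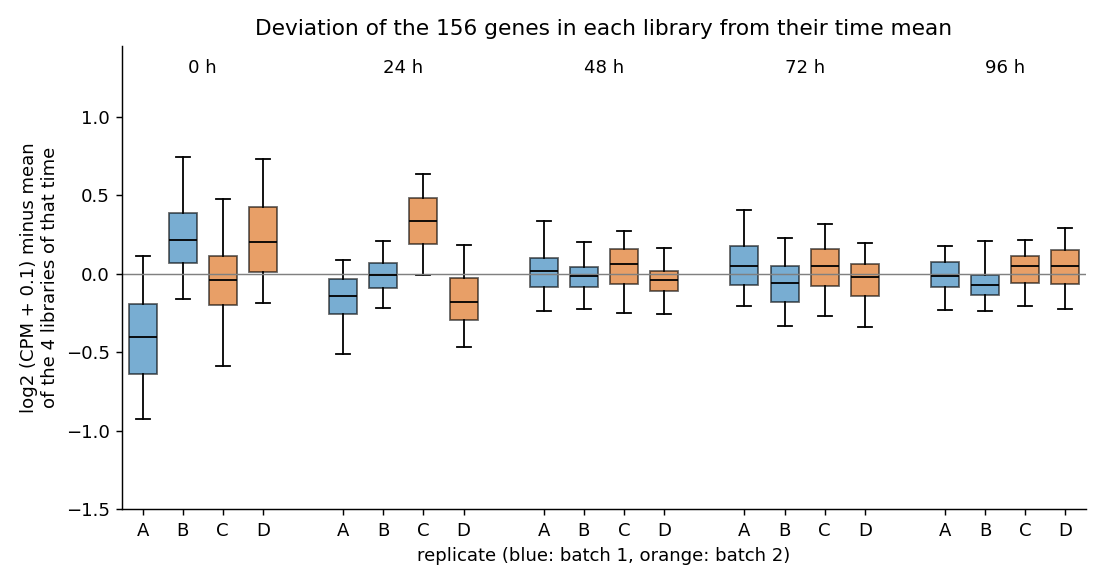
Deviation of the 156 genes in each library from their mean over the 4 libraries of that time, in log2 of CPM plus 0.1; boxes span the quartiles with a line at the median, and whiskers reach the 5th and 95th percentiles. Replicate A at 0 h lies low (median -0.40) and replicate C at 24 h lies high (median 0.34), and the later libraries stay near 0.

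The genes that were farther ahead in replicate C at 24 h tended to be those that rose more on the next day. The lead of C was taken over 2 of the other libraries and the step to 48 h was measured from the remaining one, so that the values compared shared no library. Over the 3 ways of doing this Pearson's r across the 156 genes lay between 0.398 and 0.666, and between 0.299 and 0.322 across all tested genes. For replicate A, which was low at 24 h, r lay between -0.757 and -0.608. For B it lay between -0.384 and 0.220 and for D between -0.0623 and 0.348. Across all tested genes the ranges were -0.293 to -0.0732 for A, -0.109 to 0.086 for B and -0.171 to -0.0187 for D. The genes share libraries and depth in these correlations, which are a description of 4 libraries per time. At 48 h replicate C held the highest value for 73 of the 156 genes (46.8%), against 32.4% of all tested genes. Its lead and the step to 72 h gave r between 0.134 and 0.436, and between -0.00801 and 0.272 across all tested genes. For A, B and D the same step gave -0.276 to 0.163, -0.505 to -0.229 and -0.00796 to 0.267. Across all tested genes these were -0.231 to 0.164, -0.32 to 0.0355 and -0.151 to 0.0685. From 72 h to 96 h the ranges were -0.387 to 0.139 for A, -0.490 to -0.0179 for B, -0.00727 to 0.379 for C and -0.0613 to 0.395 for D. All tested genes gave -0.232 to 0.104 for A, -0.289 to 0.0718 for B, -0.0642 to 0.215 for C and -0.144 to 0.137 for D. The relation was clearest from 24 h to 48 h, for A and C.

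Leaving out the libraries that stood apart changed the sizes moderately. The median first-day ratio of 17.8-fold became 15.98-fold without replicate A at 0 h, 16.2-fold without replicate C at 24 h and 14.45-fold without both. The 24 h mean as a share of the 96 h mean went from a median of 14.6% to 13.3% without replicate C at 24 h. The rule applied without replicate A at 0 h gave 151 genes with 150 of the 156 among them, without replicate C at 24 h 152 with 150 among them, and without both 143 with 141 among them.

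Levels differed between the batches in about the same share of the set as of all genes. The batch contrast, which the rule averages over, called 26 of the 156 genes higher and 3 lower in batch 2 (edgeR quasi-likelihood test with time as covariate), with 10.9% of all genes called higher and 8.36% lower. Together these were 18.6% of the set, and 19.2% of all genes were called in either direction. The differences of the called genes ran from -0.33 to 0.90 on the log2 scale, and 0 of them reached 2-fold. Batch 2 had the higher mean for 117 of the 156 genes at 0 h and for 124, 75, 86 and 104 of them at the 4 later times. For all tested genes the comparison used means of log2 CPM in place of mean CPM, so the measures are not quite alike. The share of all tested genes that were higher in batch 2 was 46.9% at 0 h and 53.8, 50.8, 54.5 and 50.8% at the later times. The balance moved with the libraries above: without replicate C at 24 h the calls were 26 higher and 12 lower, without replicate A at 0 h 29 and 10, and without both 28 and 27. The called share of the set was then 24.4, 25 and 35.3%, against 21.8, 29 and 32.8% of all genes. Without replicate C at 72 h the calls were 15 higher and 0 lower, or 9.62% of the set against 13.7% of all genes. With both left out, higher and lower calls were close to equal in number.

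Whether the shape of the time course differed between batches depended on the filter for low counts. In a test of the 4 batch by time terms together (edgeR quasi-likelihood F-test), 0 of the 156 genes were called, with 0.00683% of all genes called, which is 1 gene. Without the low-count filter the same test called 62 of the 156 (39.7%) and 5.54% of 20846 genes, and the cause was not tested. With the filter, the smallest adjusted p in the set was 0.504, and at an unadjusted p under 0.05 there were 14 of the 156, against 9.72% of all genes. DESeq2 called 0 of the 156 as well, and its count over all genes is given with the other settings below. Omitting a library leaves 1 library in its batch and time. Calls of this test under such omissions are therefore given only as ranges below, beside those over all genes. With 2 libraries per batch and time, small differences in shape are not detectable.

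Set beside the 88 other genes with a strong first-day rise, the 156 differed by construction after 24 h, and the levels before that are given as a description. The 88 had a median of 0.523 CPM at 0 h and 10.3 CPM at 24 h, against 0.902 and 19.4 CPM in the set. Their later medians were 23.8, 15.5 and 10.7 CPM. Of the 88, 59 had a 48 h level of at least 1.7 times the 96 h level, 35 a 24 h level of at least 2 times it and 35 a 72 h level of at least 1.7 times it, while 6 passed the limit on the rise from 48 h to 72 h and 11 that from 72 h to 96 h; a gene can count more than once. No test of these differences was made, since the rule fixes them.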

How the data were processed

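RNA sequencing of polyA RNA from 20 libraries was analysed. The authors deposited unnormalized counts for each gene, made with STAR 2.7 and featureCounts on build bosTau9, per the submitters' processing notes. Annotation release, parameters and strand setting: not given in the sources used here. All 20 columns matched a library by name, and 0 rows named no gene. Genes passed filterByExpr by time (minimum count 10, minimum total 15), and TMM scaling was used. A quasi-likelihood model with time and batch was fitted to all tested genes in R 4.3.3 with edgeR 4.0.16 (robust), with Benjamini-Hochberg adjustment and calls at 0.05. Standard errors were derived from the F statistic. Single-batch fits held time alone. Alternatives used DESeq2 1.42.0, other scalings, filters and bounds, a replicate block and omission of libraries. The code was tested on simulated data.

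The members, lists and tests were chosen with earlier results of these data known. Symbol lists and promoter sequences were planned; with 0 identifiers paired with symbols (RefSeq table, ARS-UCD2.0) none was evaluated. The naming rule without symbols took the first gene by 24 h level and the first by first-day ratio. Depth ranged from 21100797 to 41998509 counts.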

Additional observations from a re-analysis of the deposited data

Results flagged for a closer look

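The summed TMM-scaled level of the 156 genes at 24 h was 21220 CPM in replicate C, far from the other 3 libraries at 15120 to 16110 CPM (Dixon's gap ratio 0.838, above the critical value of 0.829 for 4 samples). It was the 1 case among 20 sets of 4 libraries checked, and chance gives about 1 in 20. On the scale of raw shares the same library, at 2.51%, had a gap ratio of 0.818 and was not past the critical value. Of the 780 sets of 4 values for single genes and times, 12 were past it at 24 h, 11 of them because of replicate C, and the other times had 9, 1, 5 and 10 such sets in order. Chance at about 1 in 20 applies to each of these sets as well, and the share over all tested genes was not computed. The choice by the 24 h mean also favours genes that are high in a library at 24 h. The cause of the high level in replicate C was not tested.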

How the results depend on the processing

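Of 260 values under other settings 231 kept within 1.5 times the reported one or kept their call, as did 557 of 620 with 1 library left out. Both identified genes kept direction and call in the first day throughout. The rule gave 321 genes at a 4-fold bound and 86 at 16-fold. In the reported fit 13 of the set were lower in the last step and 5 from 24 h to 96 h. Of all tested genes 18% and 36.6% were called lower there. For the settings that follow, shares of all genes called lower in these steps were not computed. The batch calls over all genes without the low-count filter are not given here, so those of the set cannot be set against them. With library sizes alone, 22 of the set were lower in the last step and 11 from 24 h to 96 h. Without the low-count filter, 33 were lower in the last step, 52 higher and 19 lower in batch 2, and 62 of 1154 called genes differed in time course between batches; the cause was not tested. Without 0 h A and 24 h C together (chosen after the data were seen), 21 were lower in the last step, 27 lower in batch 2 among 4825 called genes, and 6 genes differed in time course. The last step had 21 lower with its own libraries alone, and DESeq2 called 22 genes for time course.

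For genes chosen in batch 1 and tested in batch 2, the share lower in the last step was 6.33% with library sizes alone and 6.9% with DESeq2. The 4-fold bound gave shares lower of 6.41% in the second day, 17% in the third, 6.41% in the last and 8.01% from 24 h to 96 h, and the 16-fold bound 0%, 2.53% and 0% for the second day, the third day and 24 h to 96 h. For genes chosen in batch 2, the 4-fold bound gave 7.81% for both the second day and 24 h to 96 h, and the 16-fold bound 1.04%, 5.21% and 2.08%. The bounds change only the choice, so the shares of all genes called lower stayed the same. In batch 2 these were 23.3% in the second day, 12.4% in the third, 8.33% in the last and 30.3% from 24 h to 96 h. In batch 1 they were 26.3% in the second day, 12.7% in the third and 31.8% from 24 h to 96 h. For library sizes alone and DESeq2 they were not computed.

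With 1 library left out, the set's calls ranged from 10 to 21 lower in the last step and, for batch, from 15 to 31 higher and 0 to 12 lower, with 2026 to 4284 genes in all. The time course test called 0 to 1 of the set and 0 to 40 genes. In batch 1 the shares ranged from 1.2 to 3.61% lower in the second day, 27.1 to 57.8% higher in the third and 13.3 to 27.1% lower in the last. In batch 2 they ranged from 1.38 to 3.45%, from 19.3 to 55.9% and from 1.38 to 8.97%, with 2.07 to 9.66% lower in the third day and 7.59 to 34.5% higher in the last. For some of these omissions within a batch, shares of all genes called are given above, and they also moved with the omitted library. For the rest, among them those behind the highest shares called higher between 48 h and 72 h, they are not given here. These ranges therefore describe the chosen genes only and cannot be set against all genes. A batch and time left with 1 library is assumed to vary like the others.

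No pairing by letter was assumed across times: libraries of 1 letter deviated together with a median correlation of 0.137 (-0.352 to 0.526), and 22 of the 40 pairs had a value over 0.1. For 7 of the 20 libraries the mean correlation with libraries of other times was highest for their own letter. With a replicate block the second-day calls were 142 higher and 7 lower and those from 24 h to 96 h 144 and 5, and no count moved by over 1.5 times. The promoter motif alternatives and the gene lists were not run, as no identifier had a symbol.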
